A study of Mus musculus with 6 samples.

Results

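The genes of the fat-digesting enzymes of the pancreas and of their cofactor were followed in spleens of female mice of the NOD strain, in which autoimmune diabetes arises spontaneously. They were Pnlip, Pnliprp1, Pnliprp2, Cel, Clps and Pla2g1b. All 11 probe sets of the array that belong to these 6 genes alone were taken, among 18194 genes with a probe set of their own. The genes were picked with their levels on these arrays already known, so their levels and differences are given as a description, with no test.

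The 3 groups of mice were compared on 6 Affymetrix arrays that cover the whole mouse genome. TSA-treated mice had received weekly subcutaneous injections of trichostatin A (TSA), which blocks histone deacetylases, at 500 µg/kg of body weight from 18 to 24 weeks of age, and were free of diabetes when killed; treated mice that stayed diabetic were not used, so this group was selected by outcome. Untreated diabetic mice had developed the disease, and untreated non-diabetic mice had not. Neither of these 2 groups was injected, so an effect of injection or vehicle and one of TSA cannot be told apart here. The labels call the material splenocytes and give an age of 32 to 36 weeks, whereas the methods describe whole spleens and younger diabetic mice, so age and diabetes may not be separable. RNA of 3 to 5 mice of a group, per the labels, was combined into 1 pool, and each pool was labeled and run on 2 arrays. Spread within a group is therefore technical and says nothing of the spread between mice.

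Acinar cells of the exocrine pancreas make these proteins and store them in zymogen granules, from which they are released into the gut. Pancreatic triglyceride lipase splits dietary fat, and colipase anchors it to fat droplets that are coated with bile salts. The lipase-related proteins share its fold, carboxyl ester lipase cleaves cholesteryl esters and other esters once bile salts activate it, and the pancreatic phospholipase A2 releases a fatty acid from phospholipids. Acinar cells are not a normal cell type of the spleen.

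The duplicate arrays were unevenly close. Over all probe sets, duplicates differed with an SD of 0.589 on the log2 scale for TSA-treated, 0.522 for untreated diabetic and 0.253 for untreated non-diabetic mice. The 3′ probe set of beta-actin exceeded the 5′ one, a gap that widens as RNA or its copies shorten, by 3.45 and 5.61 on the TSA-treated arrays, 2.42 and 3.32 on the diabetic arrays and 2.35 and 2.05 on the non-diabetic arrays (log2). The mean log2 level of the 6 genes on the same arrays was 7.76 and 7.41, 10.37 and 10.46, and 4.27 and 4.14, in the same order. The gap of Gapdh was 3.85 and 4.58 on the TSA-treated, 1.82 and 3.19 on the diabetic and 2.67 and 1.91 on the non-diabetic arrays. The part of RNA length in the results was not tested.

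Pnlip, which codes for pancreatic triglyceride lipase, had log2 levels of 9.98 and 9.36 on the TSA-treated arrays, against 12.24 and 12.64 on the untreated diabetic arrays and 4.96 and 4.31 on the untreated non-diabetic arrays (1 probe set, which the platform annotation used here does not name and the study's gene tables call Pnlip). The 3 groups did not overlap, with diabetic mice highest and non-diabetic mice lowest. The difference of group means was -2.77 between TSA-treated and diabetic mice, 7.81 between diabetic and non-diabetic mice, and 5.04 between TSA-treated and non-diabetic mice, each with a standard error (SE) of 0.32 from limma, a linear model with moderated variances that was fitted to all probe sets. On a linear scale the TSA-treated level was 14.7% of the diabetic level. Among all probe sets of its array, Pnlip stood at percentiles 97.6 and 96.9 in TSA-treated, 99.6 and 99.7 in diabetic, and 63.5 and 55.9 in non-diabetic mice. In spleen RNA, fewer cells that carry such a transcript and less of it per cell cannot be told apart.

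Pnliprp1 codes for pancreatic lipase-related protein 1, which has little or no lipase activity of its own. Its log2 levels were 8.08 and 7.96 in TSA-treated mice, against 10.17 and 10.06 in diabetic mice and 5.09 and 5.09 in non-diabetic mice (1415777_at). Over the 3 groups its duplicates lay closer together than those of any of the other 5 genes, and the groups did not overlap. Its differences were -2.09 between TSA-treated and diabetic mice, 5.02 between diabetic and non-diabetic mice, and 2.93 between TSA-treated and non-diabetic mice (SE 0.15 each). The TSA-treated level was 23.5% of the diabetic level on a linear scale.

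Pnliprp2 codes for lipase-related protein 2, which cleaves galactolipids and phospholipids as well as triglycerides. Its brightest probe set, 1448186_at, had log2 levels of 6.49 and 6.54 in TSA-treated, 8.65 and 9.14 in diabetic and 3.37 and 3.28 in non-diabetic mice. The differences were -2.38, 5.57 and 3.19 for TSA-treated minus diabetic, diabetic minus non-diabetic and TSA-treated minus non-diabetic mice (SE 0.21 each). The second probe set, 1437438_x_at, had 5.90 and 7.11, 8.53 and 8.61, and 2.79 and 2.75 in the same 3 groups. It kept the order of the groups without overlap, although its TSA-treated duplicates stood 1.21 apart. Its differences were -2.06, 5.80 and 3.74 (SE 0.38 each).

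**Figure D1:**
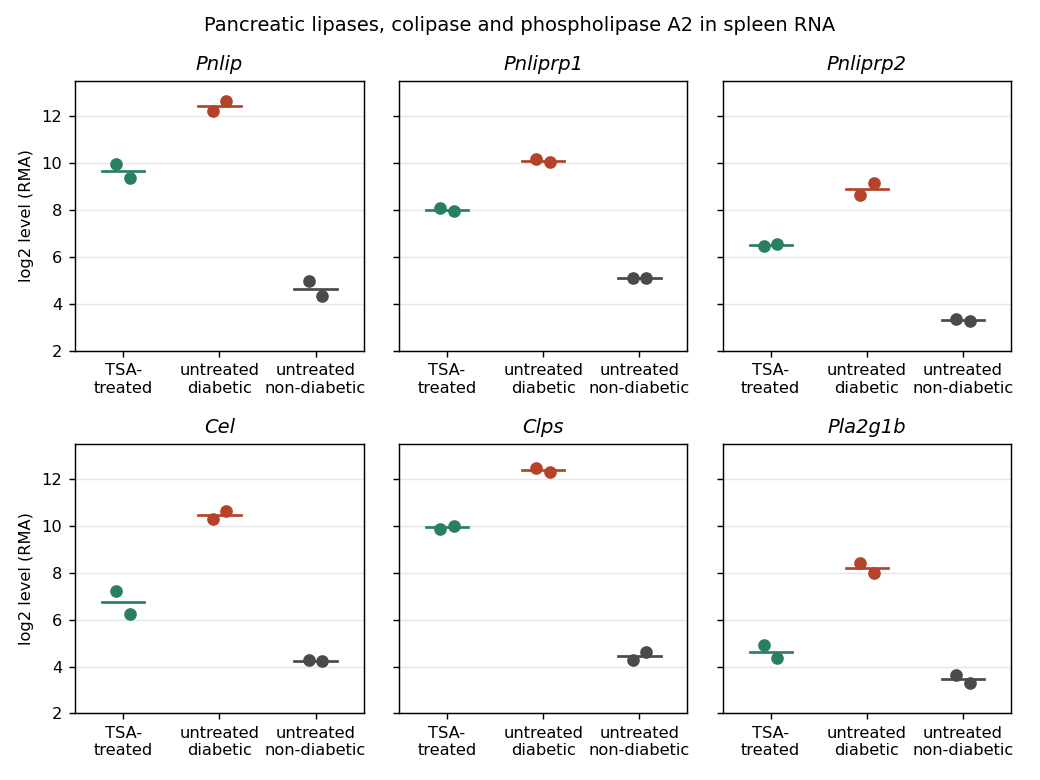
Log2 level (RMA) of the brightest probe set of each of the 6 genes, with 1 point per array and a line at the mean of each group of 2 arrays; TSA-treated, untreated diabetic and untreated non-diabetic arrays run from left to right. In every panel the diabetic arrays are highest, the non-diabetic arrays lowest and the TSA-treated arrays between them, with no overlap.

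Pnlip, Pnliprp1 and Pnliprp2 are adjacent on mouse chromosome 19, with 0 other protein-coding genes between them in the RefSeq annotation. The 5 protein-coding genes on either side, a window chosen after the levels of the lipases had been seen, were read beside them. Of these 10 neighbours 9 were measured, and 0 passed at an adjusted p under 0.05 from limma in any of the 3 comparisons; at an unadjusted p under 0.05 the count was also 0 in each. Their differences ran between -0.32 and 0.20 for TSA-treated minus diabetic, -0.28 and 0.30 for diabetic minus non-diabetic, and -0.45 and 0.33 for TSA-treated minus non-diabetic mice. Among them was Gfra1, a receptor subunit for glial cell line-derived neurotrophic factor. Others were Hspa12a, of the heat shock protein family, and Vax1, a homeobox gene of the developing forebrain and eye. Most of the measured neighbours lay under the median of every array, Gfra1 at 2.70 to 3.37 and Vax1 at 3.30 to 3.60 among them. For these an absence of calls says little. Cel lies on chromosome 2, Clps on chromosome 17 and Pla2g1b on chromosome 5, so the shared order of levels was not limited to 1 locus.

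Promoter sequence is shown for Pnlip and Pnliprp1, neighbours on chromosome 19, and for Cel on another chromosome, because their levels moved in the same order from different start sites. Each run gives the 120 bases before the annotated start, 5′ to 3′ on the gene's strand (RefSeq, GRCm38.p6), and capitals mark matches on either strand to CANNTG (the E-box core bound by basic helix-loop-helix factors such as Ptf1a), TTTCCC (part of the site that the PTF1 complex of acinar cells reads), TCAAGG (the core bound by Nr5a2) or TATAAA (the TATA box).
Pnlip, chr19:58670245-58670364, + strand: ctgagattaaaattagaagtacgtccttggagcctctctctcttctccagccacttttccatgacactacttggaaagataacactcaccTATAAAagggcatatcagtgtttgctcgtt
Pnliprp1, chr19:58728767-58728886, + strand: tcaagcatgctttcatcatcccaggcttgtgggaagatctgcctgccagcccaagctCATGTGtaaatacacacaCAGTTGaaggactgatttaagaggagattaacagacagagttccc
Cel, chr2:28563404-28563523, - strand: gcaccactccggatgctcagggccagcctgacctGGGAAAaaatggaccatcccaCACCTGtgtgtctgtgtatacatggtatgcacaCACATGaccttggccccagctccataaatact

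In these windows Pnlip held a TATA box that began 30 bases before the start, Pnliprp1 held 2 E-box cores, and Cel held 2 E-box cores and, on the opposite strand and so printed as GGGAAA, 1 match to TTTCCC. No match overlapped another. Over the 250 bases before the start, which were found for 5 of the 6 genes, CANNTG occurred in 3 of 5 (Pnliprp1, Pnliprp2 and Cel), against 66.2% of 32851 mouse promoters of that length. TTTCCC occurred in 1 of 5 (21.9% of all promoters), TATAAA in 1 of 5 (12.4%) and TCAAGG in 0 of 5 (12.5%). CANNTG and TTTCCC occurred together in Cel only, against 14.2% of all promoters. The promoter of Pla2g1b held none of these letters in this window. These are matches of letters and do not show binding.

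Cel codes for carboxyl ester lipase, also called bile salt-stimulated lipase. Its log2 levels were 7.22 and 6.25 in TSA-treated mice, against 10.30 and 10.65 in diabetic mice and 4.27 and 4.22 in non-diabetic mice (1417257_at). The groups stayed apart, but the TSA-treated duplicates differed by 0.97. It differed by -3.74 between TSA-treated and diabetic mice (SE 0.33), and the TSA-treated level was 7.50% of the diabetic level on a linear scale. Without TSA-treated replicate 1 that difference was -4.22, and without TSA-treated replicate 2 it was -3.25. The other differences were 6.23 between diabetic and non-diabetic mice and 2.49 between TSA-treated and non-diabetic mice.

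Clps codes for colipase, the cofactor without which bile salts strip the lipase from fat. Its brightest probe set, 1438612_a_at, had log2 levels of 9.86 and 10.005 in TSA-treated, 12.47 and 12.28 in diabetic and 4.29 and 4.64 in non-diabetic mice. It differed by 7.91 between diabetic and non-diabetic mice. It differed by -2.44 between TSA-treated and diabetic mice and by 5.47 between TSA-treated and non-diabetic mice (SE 0.19 each). The second probe set, 1415805_at, gave 8.40 and 7.96 in TSA-treated, 11.70 and 11.32 in diabetic, and 5.49 and 4.74 in non-diabetic mice. Both probe sets put the groups in the same order without overlap. The second differed more between TSA-treated and diabetic mice, by -3.32, and less between diabetic and non-diabetic mice, by 6.39, and between TSA-treated and non-diabetic mice, by 3.07 (SE 0.31 each).

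Pla2g1b, the gene of pancreatic phospholipase A2, has 4 probe sets, and they did not give a single answer. The brightest, 1437015_x_at, had log2 levels of 4.91 and 4.35 in TSA-treated, 8.40 and 8.01 in diabetic and 3.65 and 3.29 in non-diabetic mice. It differed by -3.57 between TSA-treated and diabetic mice, by 4.73 between diabetic and non-diabetic mice, and by 1.16 between TSA-treated and non-diabetic mice (SE 0.27 each). Its TSA-treated mean thus lay nearer to the non-diabetic mean than for any of the other 5 genes. The suffix _x_at means that some of its probes may also bind other transcripts.

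A second Pla2g1b probe set, 1416626_at, had 3.92 and 4.06 in TSA-treated, 4.91 and 5.02 in diabetic, and 3.64 and 4.04 in non-diabetic mice. Its diabetic arrays stood above the others, and its TSA-treated and non-diabetic arrays overlapped. The difference was -0.98 between TSA-treated and diabetic mice and 1.12 between diabetic and non-diabetic mice (SE 0.19 each). The last 2, 1433948_at and 1433949_x_at, stayed at or under percentile 7.99 of every array, with levels between 2.27 and 2.53 and between 2.07 and 2.52. The groups of 1433949_x_at overlapped. Those of 1433948_at did not, but they lay in another order, with TSA-treated arrays at 2.526 and 2.433, diabetic arrays at 2.390 and 2.426 and non-diabetic arrays at 2.358 and 2.274. With the mean of the 4 probe sets in place of the brightest, the differences of Pla2g1b shrank to -1.15, 1.54 and 0.39 for TSA-treated minus diabetic, diabetic minus non-diabetic and TSA-treated minus non-diabetic mice.

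**Figure D2:**
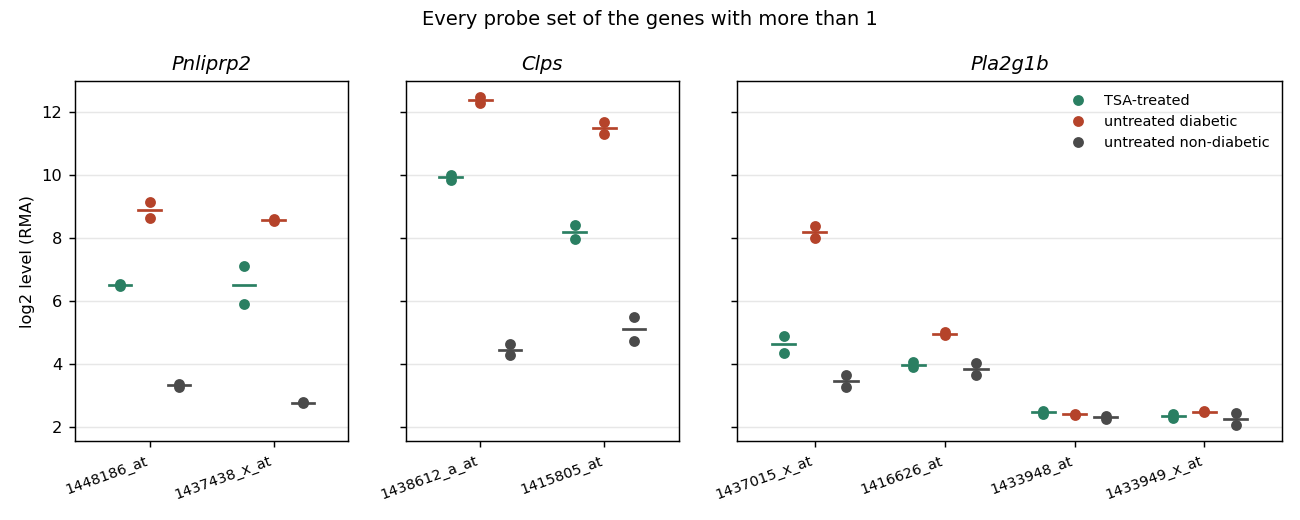
Log2 level (RMA) of every probe set of the 3 genes that have more than 1, with a point per array and a line at the mean of each group. Both probe sets of Pnliprp2 and of Clps put the diabetic arrays highest and the non-diabetic arrays lowest, whereas for Pla2g1b only 1437015_x_at has that order without overlap and 2 probe sets stay at or under a log2 level of 2.53.

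Among the 11 probe sets, 8 had diabetic arrays above TSA-treated arrays and TSA-treated arrays above non-diabetic arrays with no overlap, including the brightest probe set of each of the 6 genes. Over the whole array that order without overlap was found in 124 of 18194 genes (0.682%). The 3 probe sets that lacked it all belong to Pla2g1b. On the non-diabetic arrays the brightest probe sets stood between percentiles 36.3 and 64.9, around the array medians of 3.79 to 3.95. Levels there may be background signal, in which case the differences from non-diabetic mice understate the true ones. On the diabetic arrays they stood between percentiles 89.7 and 99.7, and on the TSA-treated arrays between 57.4 and 98.0.

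Between TSA-treated and untreated diabetic mice, all 6 genes had lower levels in TSA-treated mice, with a median difference of -2.61 against a median of 0.02 over all genes. The differences ran between -3.74 for Cel and -2.09 for Pnliprp1. A gene was called where its brightest probe set had an adjusted p under 0.05 from limma. Lower levels in TSA-treated mice were called for 0.0495% of 18194 genes and higher ones for 0.0055%, and 2 of the 6, Pnliprp1 and Pla2g1b, were among those called lower. Since these arrays were used to choose the genes, nothing is read from that count. It was 6 without TSA-treated replicate 1 and 0 when any other single array was left out.

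In untreated diabetic against untreated non-diabetic mice, all 6 genes had higher levels, with a median difference of 5.90 against 0.04 over all genes. The differences ran between 4.73 for Pla2g1b, 26.6-fold on a linear scale, and 7.91 for Clps; the order of Clps and Pnlip depended on the array left out. Over the array 0.126% of genes were called higher and 0.0055% lower, and all 6 were among those called higher; the genes were chosen on these arrays, so nothing is read from this count either. The calls of Cel and Pla2g1b were lost without diabetic replicate 2 and without either non-diabetic array. The number of arrays limits the precision of each of these values.

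Between TSA-treated and untreated non-diabetic mice, all 6 genes had higher levels in TSA-treated mice, with a median difference of 3.06 against 0.07 over all genes. The range was wide, between 1.16 for Pla2g1b, 2.23-fold on a linear scale, and 5.47 for Clps, 44.3-fold. Over the array 0.0989% of genes were called higher and 0.022% lower, and Pnlip, Pnliprp1, Pnliprp2 and Clps were among those called higher, from which nothing is read for the same reason. Without either non-diabetic array, 0 of the 6 were called. The 3 comparisons share arrays, so their values are set side by side and are not independent of each other.

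**Figure D3:**
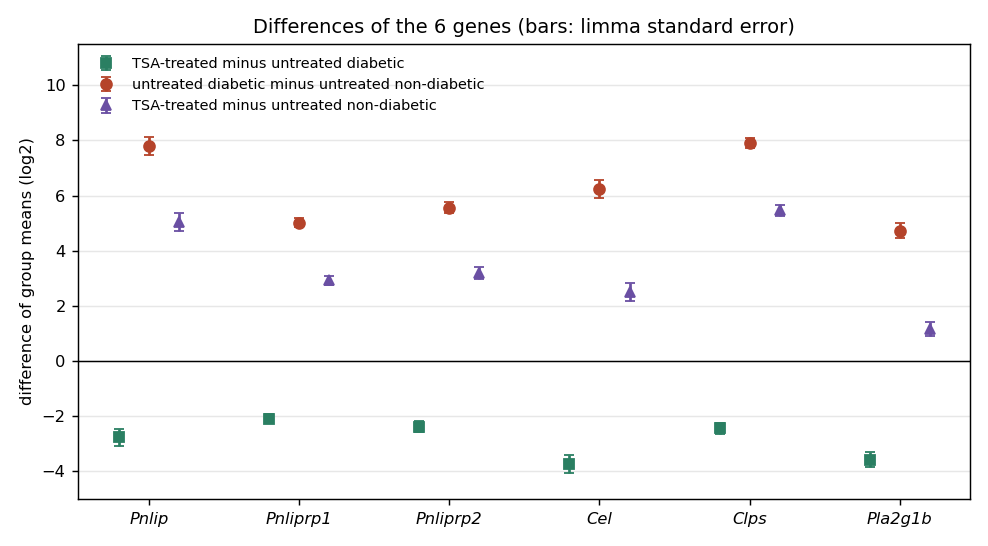
Difference of group means (log2) of the brightest probe set of each gene, for TSA-treated minus untreated diabetic, untreated diabetic minus untreated non-diabetic and TSA-treated minus untreated non-diabetic mice, with bars of 1 limma standard error on either side. All 6 genes lie below 0 for TSA-treated minus diabetic mice, between -3.74 and -2.09, and above 0 in the other comparisons.

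Lipases of other tissues were not called with the pancreatic ones. Over all 45037 probe sets, 1922 passed at an unadjusted p under 0.05 from limma for TSA-treated minus diabetic mice. For diabetic minus non-diabetic mice 2825 passed, and for TSA-treated minus non-diabetic mice 6637. The unadjusted counts of each list are to be read beside these. Of 13 measured extracellular or lysosomal lipases and their partners, 0 were called in any comparison from limma (1, 0 and 3 at an unadjusted p under 0.05 for TSA-treated minus diabetic, diabetic minus non-diabetic and TSA-treated minus non-diabetic mice), with median differences of -0.01, 0.08 and 0.07. The brightest, Lpl, the lipoprotein lipase of capillary walls, had log2 levels of 9.25 and 9.69 in TSA-treated, 9.74 and 10.13 in diabetic, and 9.63 and 9.64 in non-diabetic mice. Its groups were close, with diabetic arrays slightly highest. Most of the 13 had mean levels under the array medians of 3.79 to 3.95, such as Lipf at 2.49 and Lipn at 2.69. Some genes of the next lists were as dim, such as Ces1g at 2.60 and Fabp2 at 2.48. An absence of calls says little for such genes. Of 18 intracellular lipases and esterases 0 were called in any comparison (1, 1 and 4 at an unadjusted p under 0.05), with medians of -0.03, -0.09 and -0.13; without TSA-treated replicate 1, 1 was called between TSA-treated and diabetic mice and 2 between TSA-treated and non-diabetic mice. Pnpla8, a phospholipase of mitochondria and peroxisomes and the brightest of them, had 8.995 and 8.87 in TSA-treated, 8.36 and 9.16 in diabetic, and 8.21 and 8.20 in non-diabetic mice.

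The other secreted phospholipases A2, with their receptor, gave 0 called of 12 in each comparison (1, 0 and 1 at an unadjusted p under 0.05) and medians of 0.08, 0.06 and 0.10. The brightest, Pla2g7, which inactivates platelet-activating factor, had 8.33 and 5.00 in TSA-treated, 7.08 and 8.27 in diabetic, and 6.98 and 7.17 in non-diabetic mice, so its TSA-treated duplicates spanned the other groups. Of 14 genes of fat uptake in the gut 0 were called (0, 0 and 2 at an unadjusted p under 0.05), with medians of -0.02, -0.01 and 0.01. Cd36, a fatty acid transporter that macrophages also carry, was the brightest, with 9.66 and 8.84 in TSA-treated, 9.24 and 9.36 in diabetic, and 8.92 and 9.13 in non-diabetic mice.

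The genes of the other acinar digestive enzymes were called in the same directions as the lipases. Of 12 measured, 4 were called lower in TSA-treated than in diabetic mice, 9 higher in diabetic than in non-diabetic mice, and 6 higher in TSA-treated than in non-diabetic mice, and none the other way (limma; the shares over all genes stand above). The median differences were -2.67, 5.91 and 3.12, close to those of the 6 members. Like the other gene lists, this one was chosen with earlier results of these data known. Its counts and p-values are therefore no independent evidence beside the lipases. They rest on labelings of 1 pool per group and not on the spread between mice. Cpb1, the gene of carboxypeptidase B1, had log2 levels of 9.07 and 9.11 in TSA-treated mice, against 11.26 and 11.53 in diabetic mice and 3.91 and 3.82 in non-diabetic mice. It fell by 2.30 in TSA-treated against diabetic mice, with an adjusted p of 0.0448 from limma. Against non-diabetic mice it was 7.53 higher in diabetic mice (adjusted p = 0.000177) and 5.23 higher in TSA-treated mice (adjusted p = 0.00203). Ctrl, a chymotrypsin-like protease, was 2.81 lower in TSA-treated than in diabetic mice, at 9.02 and 8.60 against 11.59 and 11.65. The 4 calls between TSA-treated and diabetic mice became 10 without TSA-treated replicate 1 and 0 without any other array. The 9 calls became 6 without diabetic replicate 2 or either non-diabetic array, and the 6 calls between TSA-treated and non-diabetic mice became 9 without TSA-treated replicate 1 and 0 without either non-diabetic array.

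Other secretory products of acinar cells moved less uniformly, between -3.12 for Gp2 and 0.89 for Reg2 in TSA-treated minus diabetic mice. Of 17, 7 were called higher in diabetic than in non-diabetic mice, 5 higher in TSA-treated than in non-diabetic mice, and 0 between TSA-treated and diabetic mice (12 there at an unadjusted p under 0.05), with median differences of 2.03, 0.56 and -1.47. Sycn, a protein of the zymogen granule membrane, had 8.85 and 8.55 in TSA-treated, 11.61 and 11.22 in diabetic, and 4.52 and 4.13 in non-diabetic mice, and was 7.09 higher in diabetic than in non-diabetic mice (adjusted p = 0.00037 from limma). Without TSA-treated replicate 1, 7 of the 17 were called between TSA-treated and diabetic mice, and without either non-diabetic array 0 were called between TSA-treated and non-diabetic mice.

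No transcription factor or receptor of acinar cells was called with their products. Of 13 measured, 0 were called in any comparison, also when any single array was left out, and 1, 1 and 0 passed at an unadjusted p under 0.05; the medians were -0.09, 0.14 and 0.21. The log2 of their summed linear levels, in which bright genes weigh most, lay between 7.23 and 7.47 on all 6 arrays. The brightest, Bhlha15, a factor of secretory cells, had 5.27 and 5.36 in TSA-treated, 5.31 and 5.48 in diabetic, and 5.42 and 5.58 in non-diabetic mice. Its groups overlapped. These genes are weakly expressed beside secretory products in acinar cells, so an absence of calls says little at these levels.

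**Figure D4:**
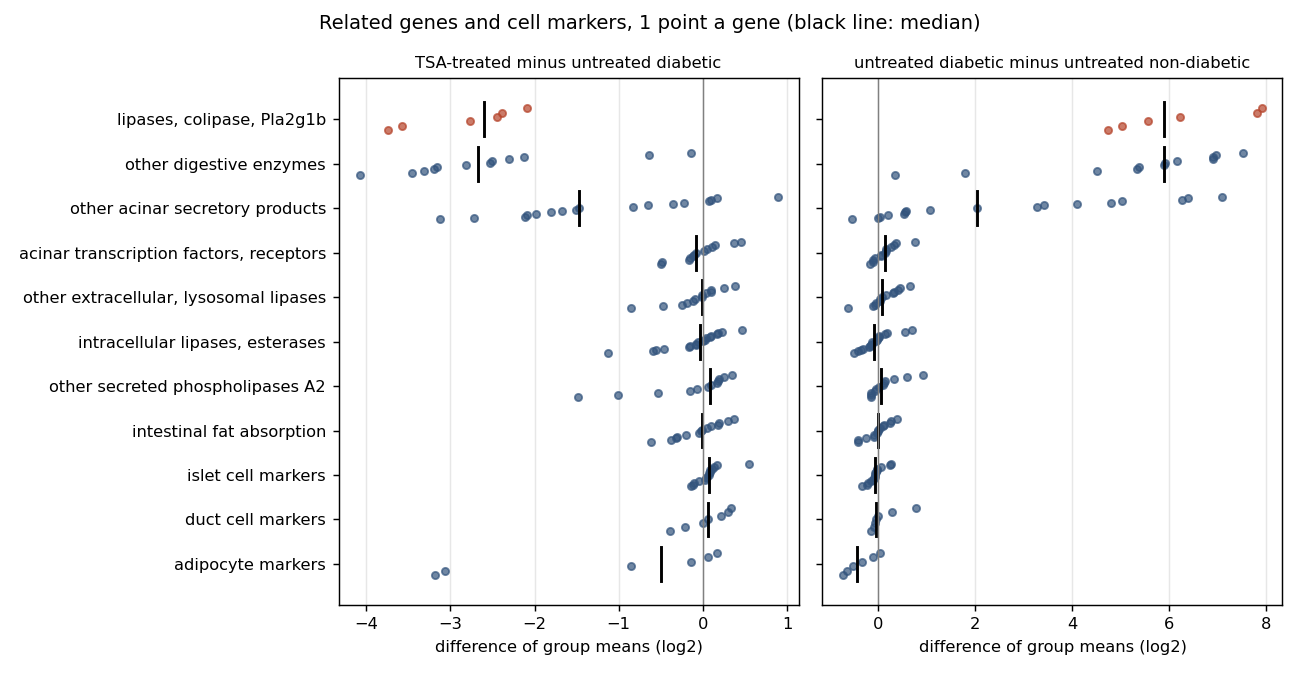
Difference of group means (log2), 1 point per gene, for TSA-treated minus untreated diabetic mice on the left and untreated diabetic minus untreated non-diabetic mice on the right, for the 6 members, 7 lists of related genes and markers of islet cells, duct cells and adipocytes, with a black line at each median. The members and the other digestive enzymes have medians of -2.61 and -2.67 on the left and 5.90 and 5.91 on the right, while the medians of the other lipases lie near 0.

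Markers of other cells were read beside these values. Of 15 islet cell markers 0 were called in any comparison from limma and 0 passed at an unadjusted p under 0.05. The log2 of their summed linear levels lay between 7.11 and 7.35. Ttr, the brightest, had 4.82 and 4.68 in TSA-treated, 4.94 and 4.35 in diabetic, and 4.53 and 4.65 in non-diabetic mice. Of 7 duct cell markers 0 were called (0, 1 and 1 at an unadjusted p under 0.05), and the brightest was Car2, which red cell precursors also make. Of 9 stomach and gut markers 0 were called (0 in each at an unadjusted p under 0.05). Thus no marker of the other pancreatic cells or of the gut was called with the lipases. Most of these markers had mean levels under the array medians of 3.79 to 3.95. The mean over the 6 arrays was 2.53 for Gcg and 4.19 for Ins2, for example. An absence of calls therefore says little about these cells.

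Adipocyte markers were the only marker list with calls. Of 6 measured, Adipoq, the fat cell hormone adiponectin, and Car3, a carbonic anhydrase of fat and muscle, were called lower in TSA-treated than in diabetic mice, by -3.06 and -3.18 (adjusted p = 0.0448 each from limma), and lower than in non-diabetic mice, by -3.40 and -3.90, while 0 of 6 were called between diabetic and non-diabetic mice. Linear levels of the 6 were also summed. The log2 of this sum was 7.42 and 7.73 in TSA-treated, 8.87 and 9.23 in diabetic, and 9.71 and 9.65 in non-diabetic mice. This sum, in which bright genes such as Car3 weigh most, was highest in non-diabetic mice, where that of the lipases was lowest. Between TSA-treated and diabetic mice the median difference of the list was -0.49. Retn differed by -0.85, Cidec by -0.14, Lep by 0.06 and Fabp4 by 0.16. The 2 calls between TSA-treated and diabetic mice remained in number only without TSA-treated replicate 1, and without any other single array 0 were called; between TSA-treated and non-diabetic mice 0 were called without either non-diabetic array.

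Of the spleen's own cells, 0 markers were called in any comparison among 6 of B cells, 6 of T cells, 8 of red pulp macrophages and 6 of erythroid cells. Without TSA-treated replicate 1, 4 of the B cell, 1 of the macrophage and 1 of the erythroid markers were called between TSA-treated and diabetic mice, and 4, 2 and 3 between TSA-treated and non-diabetic mice; without either diabetic array, 1 of the T cell and 2 of the erythroid markers were called in the last comparison. At an unadjusted p under 0.05 the B cell markers gave 3, 1 and 6, with median differences of -1.19, -0.25 and -1.25. Ms4a1, the B cell surface protein CD20 and the brightest of these, had 10.90 and 9.60 in TSA-treated, 11.46 and 11.36 in diabetic, and 11.52 and 11.47 in non-diabetic mice. Its level was lowest on the second TSA-treated array. At the same unadjusted threshold the T cell markers gave 1, 2 and 4, with median differences of -0.29, -0.36 and -0.67. Macrophage markers gave 1, 1 and 2 (medians -0.10, -0.04 and 0.03), and erythroid markers 2, 3 and 4 (medians 0.32, 0.44 and 0.74). The part of admixed pancreatic tissue in the result was not tested.

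The 10 genes with the profile most like the average of the 6 members were Ctrl, Prss2, Cpa1, Rnase1, Sycn, Cela3b, Zg16, Cela2a, Cela1 and Dmbt1. Likeness was the root mean square distance between mean-centred log2 profiles over the 6 arrays; it was 0.108 for Ctrl and 0.558 for Dmbt1, against a median of 2.53 over 18188 genes. All 10 are on the lists of acinar enzymes or acinar secretory products. The members themselves lay 0.315 (Pnliprp2) to 0.937 (Pla2g1b) from their own average, so Ctrl, the protease, was nearer to it than any lipase. The average profile, in log2 units about its mean, was 0.35 and 0.01 on the TSA-treated arrays, 2.97 and 3.06 on the diabetic arrays, and -3.13 and -3.26 on the non-diabetic arrays.

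**Figure D5:**
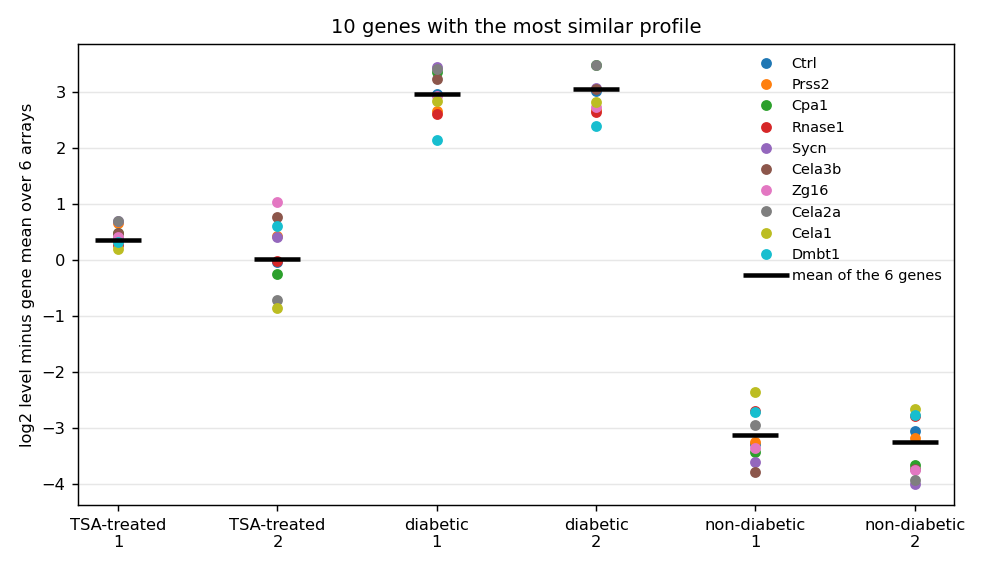
Log2 level minus the gene's mean over the 6 arrays, on each array, for the 10 genes most like the members (coloured points), with a black line at the average of the 6 members. The points of all 10 genes are above 2 on the diabetic arrays, under -2 on the non-diabetic arrays and between on the TSA-treated arrays, where the second array has the wider scatter.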

How the data were processed

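RNA of 6 samples, 2 labelings of 1 spleen RNA pool in each of 3 groups, was measured on Affymetrix mouse arrays. RMA, with quantile normalization between arrays, was the method of the authors, who deposited log2 values per probe set; no background or detection value was used here. Of 45101 probe sets, 64 controls were left out, and 45037 were tested; 34945 of them name 1 gene in the platform annotation, 932 several and 9159 none, and 1 was named Pnlip through the study's tables. A gene was given by its probe set with the highest mean.

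All arrays entered a single limma fit (version 3.58.1, run in R 4.3.3) of group means without covariates and with Benjamini-Hochberg adjustment over 45037 probe sets; the fit was tested on simulated data. Members and gene lists were chosen with earlier results of these data known. The rule for naming genes took all members and the 10 genes with the nearest profile. Of each list it took up to 4 called genes per comparison or, with none called, the brightest. Outside that rule, uncalled adipocyte markers, neighbours on chromosome 19, some dim genes and the genes under other observations were named. The brightest markers of T cells, macrophages, erythroid cells and gut were not named, and not all of the list genes are printed. Alternatives were a replicate block, leaving out arrays, the 2 groups alone, other scalings, an intensity trend, a filter on dim probe sets and the methods' t-test. The local pooled error test and analysis of variance that the methods also name were not run.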

Additional observations from a re-analysis of the deposited data

How the results depend on the processing

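The median differences of the 6 genes kept their direction under every alternative run, between -2.80 and -2.43 for TSA-treated minus diabetic, 5.69 and 6.11 for diabetic minus non-diabetic, and 3.04 and 3.20 for TSA-treated minus non-diabetic mice. No difference of a member reversed. A replicate block, a change of test alone or the loss of an array of the group not compared cannot move these differences. Those settings therefore say nothing about their stability. Counts of called probe sets were less stable. Between TSA-treated and diabetic mice, 12 were called (1 higher and 11 lower; 1922 at an unadjusted p under 0.05). The count was 0 with a replicate block, with the 2 groups alone, with median centring, with the methods' t-test, and without both diabetic replicate 2 and TSA-treated replicate 2, the arrays with the wider 3′ to 5′ gap in their groups (a setting chosen after seeing the data; 1516, 880, 1685, 1359 and 8092 at an unadjusted p under 0.05). It was 22 with a filter on dim probe sets. With 1 array left out it was 0 to 1047, with the 1047 called without TSA-treated replicate 1.

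Between diabetic and non-diabetic mice, 40 were called (39 higher and 1 lower), 33 with the replicate block, 1 with the methods' t-test, and 23 to 243 with 1 array left out. The 23 came without diabetic replicate 2 and the 243, 38 higher and 205 lower, without diabetic replicate 1. Between TSA-treated and non-diabetic mice, 31 were called (26 higher and 5 lower), 30 with the replicate block, 60 with quantile normalization again, 2 with the methods' t-test, 714 with the 2 groups alone (258 higher and 456 lower), and 3819 without both diabetic replicate 2 and TSA-treated replicate 2 (2212 higher and 1607 lower). With 1 array left out the count was 0 to 2045: 0 without either non-diabetic array, 714 without either diabetic array and 2045 without TSA-treated replicate 1 (584 higher and 1461 lower). The cause of these changes was not tested. A lone array is assumed to vary like the other groups.

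Arrays with the same replicate number did not deviate together (r = -0.11 between TSA-treated and diabetic, -0.34 between diabetic and non-diabetic and -0.04 between TSA-treated and non-diabetic mice), so the number was not taken to pair them. With the replicate block the members' calls changed only between TSA-treated and diabetic mice, where 0 of the 6 were called. The methods' t-test called 0 of the 6 in every comparison. Between TSA-treated and diabetic mice, 0 were called with the 2 groups alone and with median centring. There 1 (Cel) was called with quantile normalization again, 3 with an intensity trend and 4 with the filter on dim probe sets. The levels of the 6 genes in non-diabetic mice lay near the array medians, and whether they stood above background was not tested.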

Other observations

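Some genes counted among acinar products did not have the group order of the lipases; they were chosen here after their values were seen. Gp2, the main glycoprotein of the zymogen granule membrane and also a receptor of gut epithelium, had log2 levels of 7.43 and 5.61 in TSA-treated, 9.56 and 9.71 in diabetic, and 6.49 and 5.92 in non-diabetic mice, so that the TSA-treated and non-diabetic arrays overlapped. Klk1, tissue kallikrein, which is also made by kidney and salivary gland, had 6.74 and 6.99 in TSA-treated, 7.16 and 6.86 in diabetic, and 6.71 and 6.63 in non-diabetic mice. Clu, the widely expressed chaperone clusterin, had 10.79 and 10.94 in TSA-treated, 11.18 and 11.26 in diabetic, and 11.74 and 11.77 in non-diabetic mice. Reg2 had 6.05 and 6.05 in TSA-treated, 5.25 and 5.07 in diabetic, and 4.49 and 4.68 in non-diabetic mice. Its TSA-treated arrays were thus highest, without overlap of the groups. None of these genes was called in any comparison from limma.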
